A study of Mus musculus with 1479 samples.

Results

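Clusters 5 and 7 of the mouse bladder dataset are 2 of the 11 groups into which the authors' clustering divided 1479 single cells, and the cells compared here are the 76 labelled cluster 5 (5.14% of all) and those labelled cluster 7 (15.5%). Membership was taken from the deposited cluster label of each cell and nothing else. The study named cluster 5 the sub-epithelial fibroblasts, and the question addressed is whether cluster 7, a larger fibroblast cluster in which some Bmp3 and Bmp5 reads occur, shares the genes of cluster 5. All cells came from adult male mice of 10 to 20 weeks. They were sorted as mesenchymal, CD31-negative cells into multiwell plates and sequenced by Smart-seq2, a full-length single-cell RNA-seq protocol without molecular identifiers.

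The labels give 5 lines. Acta2GFP, Cspg4dsRED and PdgfrbGFP are transgenic reporters driven by the promoters of those mural and mesenchymal genes, PdgfraGFP is a nuclear reporter inserted in the Pdgfra locus, and C57BL6 mice carry no reporter and were sorted with antibodies. A reporter marks the cells that use its promoter and not one cell type. The lines were spread over 6 plates, named as the sample titles give them (bladder_443s and so on). A plate-and-line group is the set of cells from 1 line on 1 plate, and it is the unit of every comparison here. The labels name no animal, so the spread between groups may be technical as well as biological, and 3 of the 5 groups with at least 3 cells of both clusters came from the PdgfrbGFP line. These 5 groups, as cells of cluster 5 and of cluster 7, were bladder_074s PdgfrbGFP (7 and 79), bladder_443s C57BL6 (15 and 36), bladder_515s PdgfrbGFP (5 and 22), bladder_689s PdgfraGFP (22 and 31) and bladder_881s PdgfrbGFP (24 and 41). Cluster 7 had 11 further cells in bladder_352s Cspg4dsRED and 9 in bladder_515s Acta2GFP, and cluster 5 had 2 in bladder_352s Cspg4dsRED and 1 in bladder_689s Cspg4dsRED. Where 5 values are given in a row, they follow this order of groups. The authors drew the clusters from the same counts, so a test between clusters says how far a difference repeats over the groups and is no separate evidence for the clusters.

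In the bladder wall, fibroblasts just under the urothelium lie next to a dense capillary net, and deeper fibroblasts surround larger vessels and muscle. Fibroblasts under an epithelium are known sources of bone morphogenetic proteins (BMPs), secreted ligands of the TGF-beta superfamily that restrain or direct epithelial growth through receptor serine kinases and SMAD transcription factors. Their output is balanced by secreted BMP and WNT antagonists, and many such fibroblasts respond to hedgehog ligands from the epithelium above them.

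Both clusters carried fibroblast markers. The summed level of Pdgfra, Col1a1, Col1a2, Dcn and Lum was 12590 to 24047 reads per 500000 in cluster 5 and 8910 to 11291 in cluster 7, against 358 to 1931 in the mural cells of cluster 10. A level is always the mean over a group's cells of the reads a gene took per 500000 endogenous reads. Median depth was 261652 reads per cell in cluster 5, 234821 in cluster 7 and 219620 in the 1049 cells of the other fibroblast clusters (1, 2, 3, 4, 6, 8, 9 and 11), and 50276 was the lowest of all cells. Cluster 4, with 23 cells of which 16 were in bladder_352s Cspg4dsRED, had lower fibroblast markers than the others pooled with it (at 1 read or more after thinning, Lum in 71.4% and Pdgfra in 52.4% of its cells), and without it the comparison of cluster 7 with the pooled clusters called 1.96% of genes in place of 2.02%, with no change of call in the genes named here. No 2 cells held identical counts. The number of genes detected was higher in cluster 5 by 193.4 ± 346 (SD over 5 groups, exact two-sided permutation p = 0.31), and endogenous reads per spike-in read were lower in cluster 5 in 5 of 5 groups, by a mean log2 difference of -0.05 ± 0.04 (SD, exact permutation p = 0.0625, the smallest that 5 groups can give). Summed immune, glial and mesothelial marker levels stayed at or under 49.3 in both clusters, with Cd3e, a T-cell marker, at 0 in both. Immune markers had a higher median in cluster 5 (22.4, groups from 1.98 to 49.3) than in cluster 7 (4.90, from 0.804 to 9.17). Endothelial markers summed to 1.77 to 63.8 in cluster 5 and 32.3 to 67.1 in cluster 7, and urothelial markers had medians of 1.08 and 8.87 with a highest group of 138.7 and 91.7.

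Cluster 5 and cluster 7 differed in 1.98% of 11657 genes tested, at an adjusted p under 0.05 and a log2 difference of at least 2 (edgeR quasi-likelihood test with Benjamini-Hochberg adjustment on counts summed per group and cluster, with the group as a block). Of these, 110 genes (0.944%) were higher in cluster 5 and 1.04% of genes were lower. The median log2 difference over all genes tested was -0.28. The study's text names 11 genes in its account of sub-epithelial and deeper bladder fibroblasts, Cd34 for the deeper ones, and it chose them with these cells in view, so their direction is not independent evidence. Of the 11, 7 were higher and 1 was lower in cluster 5, with a median log2 difference of 2.77, and 3 did not pass both criteria. Several groups share a line. With counts summed over the 4 lines instead, 42 of the 75 values of named genes in this comparison lost their call. Another 30 kept their direction and either stayed called or stayed uncalled.

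Tnc, which encodes the matrix glycoprotein tenascin-C, separated the clusters in every group. Its level in cluster 5 was 418.4, 485.7, 808.9, 1192 and 577.6 reads per 500000 (696.5 ± 313.9, SD, n = 5), and in cluster 7 it was 0.495, 0.465, 0, 1.78 and 4.12. The groups did not overlap, and the log2 difference was 9.67 (SE 0.68, edgeR adjusted p = 0.00017). Tnc lies on the minus strand of chromosome 4 at 63959785 to 64047015 (GRCm38), and an antisense gene overlaps it, so that reads of the pair cannot be told apart where strand was not used. A stretch of its RefSeq promoter (GRCm38.p6, chr4:64047111-64047166, minus strand) is shown because Tnc is the gene by which the study marks the sub-epithelial fibroblasts, with the letters TATAAA in capitals.
Tnc: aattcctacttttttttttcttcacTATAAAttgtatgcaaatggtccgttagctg
The letters lie upstream of the annotated start, and 13.6% of all RefSeq promoter windows of the same length hold them on either strand, so they describe this window only.

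Among the BMP ligands, Bmp5 and Bmp2 were higher in cluster 5, and Bmp3 was above the level of cluster 7 by less than the fold required. Bmp5, a ligand of the BMP7 subgroup (chromosome 9, 75775364 to 75900310, plus strand, with another annotated gene overlapping it), stood at 261.6, 214.9, 315.9, 476.7 and 359.9 reads per 500000 in cluster 5 and at 20.5, 18.1, 24.5, 1.08 and 22.3 in cluster 7. The lowest cluster 5 group was above the highest cluster 7 group, with a log2 difference of 4.85 (SE 0.79, adjusted p = 0.0088), and the call was lost without bladder_074s PdgfrbGFP (adjusted p = 0.057). Bmp3, an atypical BMP known to antagonise other BMPs (chromosome 5, 98854415 to 98884396, plus strand), stood at 128.4, 130.9, 108.8, 152.3 and 110.9 in cluster 5 and at 61.7, 36.6, 28.4, 32.4 and 57.4 in cluster 7. The groups did not overlap here either, but the log2 difference of 1.65 (SE 0.28, adjusted p = 0.011) was under the fold required for a call. Bmp2, a classical osteogenic BMP, stood at 72.6, 52.1, 20.5, 72.5 and 73.4 in cluster 5 and at 23.6, 5.43, 11.1, 7.98 and 11.4 in cluster 7, so that cluster 5 of bladder_515s PdgfrbGFP was below cluster 7 of bladder_074s PdgfrbGFP. Its log2 difference was 2.57 (SE 0.49, adjusted p = 0.020), and the Bmp2 call was lost when any 1 group other than bladder_515s PdgfrbGFP was left out (adjusted p = 0.071 to 0.13 over bladder_074s PdgfrbGFP, bladder_443s C57BL6, bladder_689s PdgfraGFP and bladder_881s PdgfrbGFP).

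Bmp7 varied within cluster 5. Its level there was 2.001, 63.7, 31.4, 90.04 and 132.7 reads per 500000, against 3.59, 16.1, 0, 0.226 and 2.78 in cluster 7, and in bladder_074s PdgfrbGFP cluster 5 was not above cluster 7. The log2 difference of 4.90 (SE 1.36, adjusted p = 0.11) did not pass the test. Bmp4, a BMP made widely by stromal cells, stood at 465.7 ± 113.8 in cluster 5 and 371.4 ± 48.99 in cluster 7 (SD, n = 5), and its log2 difference of 0.40 did not pass (adjusted p = 0.55). Over the list of 13 BMP and related ligands, 8 were tested and 2 were higher in cluster 5, beside 0.944% of all genes, with a median log2 difference of 1.02.

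Twsg1, a BMP-binding modulator, passed the adjusted p of 0.011 with a log2 difference of 1.92, just under the fold required. None of 7 tested BMP receptors and none of 7 tested BMP response genes was called by edgeR in cluster 5 against cluster 7. The response genes had a median log2 difference of -1.72, against -0.28 over all genes, and Id3 differed by 0.01 (SE 0.26).

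**Figure D1:**
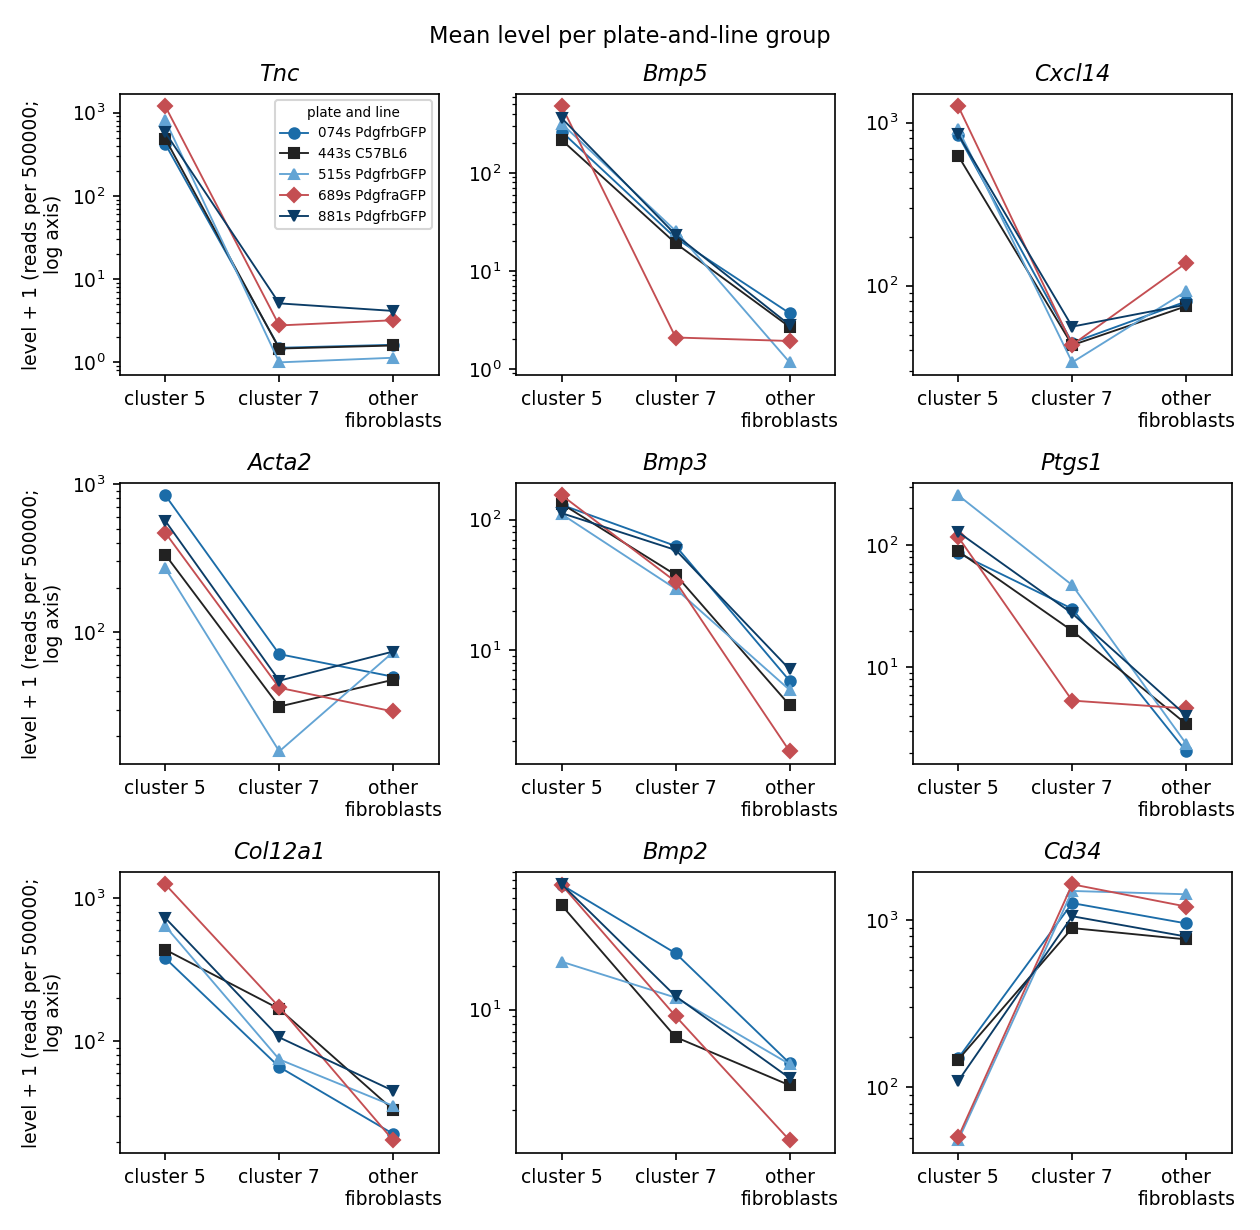
Level of 9 of the genes the study names, in reads per 500000 plus 1 on a log axis, in cluster 5, cluster 7 and the other fibroblast clusters of the same plate-and-line group, with 1 line per group. Tnc, Cxcl14 and Acta2 are much higher in cluster 5 than in either other class. Bmp3, Bmp5, Ptgs1 and Col12a1 have cluster 7 between the other classes in every group, and Cd34 is lowest in cluster 5.

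Among the other genes the study names, cluster 5 was higher in a chemokine, a collagen, a prostaglandin enzyme and smooth muscle actin. Cxcl14, a chemokine made by many epithelia and stromal cells, stood at 836.4, 624.8, 912.5, 1259 and 846.1 reads per 500000 in cluster 5 and between 32.8 and 55.01 in cluster 7 (log2 difference 4.76, SE 0.23, adjusted p = 1.6e-05). Col12a1, a collagen that sits on the surface of collagen I fibrils, stood at 378.9, 434.7, 634.1, 1244 and 723.6 in cluster 5 and at 65.3, 167.4, 73.9, 172.4 and 105.6 in cluster 7 (log2 difference 2.77, SE 0.24, adjusted p = 0.00047). Ptgs1, the constitutive cyclooxygenase, stood at 84.9, 87.9, 253.7, 115.1 and 126.4 in cluster 5 and at 29.1, 18.9, 46.02, 4.36 and 26.6 in cluster 7 (log2 difference 2.76, SE 0.49, adjusted p = 0.013, lost with a minimum of 2 cells per group at 0.64 and with sums per line at 0.98). For these 3 genes the groups of the clusters did not overlap.

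Cd34, a sialomucin of endothelial and deep fibroblast cells (chromosome 1, 194938819 to 194961279, plus strand), went the other way. It stood at 148.3, 145.4, 47.2, 49.4 and 108.2 reads per 500000 in cluster 5 and at 1259, 893.0, 1489, 1631 and 1051 in cluster 7 (log2 difference -3.79, SE 0.40, adjusted p = 0.0010). Col8a1, a short-chain collagen of vessel walls, was on average lower in cluster 5 (124.5 ± 65.7 against 248.3 ± 104.9, SD, n = 5), its groups overlapped, and its log2 difference of -1.39 was under the fold required (adjusted p = 0.019).

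The largest differences in favour of cluster 5 fell on genes with almost no reads in cluster 7. Car3, a carbonic anhydrase abundant in muscle and fat, stood at 1238, 645.9, 1227, 1344 and 1009 reads per 500000 in cluster 5 and at 3.40, 1.47, 0.191, 22.7 and 13.4 in cluster 7 (log2 difference 8.16, SE 0.81, adjusted p = 0.00085). Mc5r, a melanocortin receptor, had 3902 reads in cluster 5 and 31 in cluster 7, Srpx2, a secreted sushi-repeat protein, had 4172 and 58, and Chst8, a sulfotransferase, had 1000 and 6, each summed over the 5 groups. With so few reads in cluster 7, the fitted log2 differences of 9.74, 8.98 and 8.85 depend on the small count that the fit adds, and they are not bounds. The other genes taken by the same rule were Lrrc55, Unc13c, Ccn4, Moxd1 and Slc7a8, with log2 differences of 7.56 to 8.92. Ccn4 is a matricellular WNT target gene, and Slc7a8 an amino acid transporter.

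In the other direction, cluster 7 had reads that cluster 5 nearly lacked. Ptgfr, the prostaglandin F receptor, stood at 1.12, 0, 0, 0 and 0.786 in cluster 5 and at 37.9, 27.95, 34.3, 53.5 and 42.6 in cluster 7 (log2 difference -7.15, SE 1.29, adjusted p = 0.015, and 0.051 without bladder_881s PdgfrbGFP). Lmo2, a LIM-domain transcriptional adaptor known from blood and vessel development, stood at 1.17, 3.19, 0, 0 and 1.36 in cluster 5 and at 57.4, 38.1, 36.9, 65.4 and 55.4 in cluster 7 (log2 difference -6.12, SE 1.06, adjusted p = 0.012). Has1, a hyaluronan synthase, and Gjb5, a connexin, had levels of 30.3 ± 8.4 and 39.7 ± 12.8 in cluster 7 and of 0.428 ± 0.508 and 0.234 ± 0.187 in cluster 5 (SD, n = 5). Trib3, Dmkn, Lsamp, Krtdap, Plcxd3 and Xpnpep2 completed this set of 10, with log2 differences of -7.05 to -6.08.

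Of the list of 14 contractile genes, 12 were tested and 7 were higher in cluster 5, beside 0.944% of all genes (Actg2, Myh11, Myl9, Tagln, Acta2, Mylk and Tpm2), none was lower, and the median log2 difference was 2.45 against -0.28 over all genes. Acta2, smooth muscle actin, stood at 837.5, 332.4, 268.2, 467.6 and 562.7 in cluster 5 and at 70.05, 30.5, 14.7, 41.1 and 46.04 in cluster 7 (log2 difference 3.72, SE 0.21, adjusted p = 2.9e-05). Myl9, the regulatory myosin light chain, stood at 555.4, 380.7, 413.2, 429.7 and 496.9 in cluster 5 and at 42.1, 15.7, 8.12, 10.4 and 34.4 in cluster 7 (log2 difference 5.00, SE 0.38, adjusted p = 0.00023). The groups did not overlap for either gene. Summed mural cell markers, a list that includes Myh11, summed to 94.5 to 282.8 reads per 500000 in cluster 5, 34.8 to 98.3 in cluster 7 and 61.6 to 111.5 in the other fibroblasts, against the 4131 to 5325 of cluster 10. Their part in the contractile result was not tested.

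The Myl9 promoter is shown because it holds a CArG box, the binding motif of serum response factor, which drives smooth muscle genes (RefSeq, GRCm38.p6, chr2:156775278-156775337, plus strand, box in capitals).
Myl9: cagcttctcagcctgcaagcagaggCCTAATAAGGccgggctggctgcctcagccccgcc
The box lies upstream of the annotated start. Promoter windows were found for 11 of the 14 contractile genes and for 4 of the 7 that were higher in cluster 5, and 1 of those 4 held the box, beside 1.81% of all genes with a window. The GLI motif TGGGTGGTC, searched on both strands, was in none of the windows of 6 genes of the hedgehog and Fox list and in 0.253% of all windows.

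Of 10 tested genes on a list of hedgehog response genes and Fox factors, 3 were higher in cluster 5, beside 0.944% of all genes, and none was lower, with a median log2 difference of 1.93. Hhip, a decoy receptor that hedgehog signalling induces, stood at 168.9, 305.2, 575.2, 426.6 and 409.4 reads per 500000 in cluster 5 and at 15.2, 3.63, 0, 0.302 and 16.1 in cluster 7 (log2 difference 6.53, SE 1.16, adjusted p = 0.014). Ptch1, the hedgehog receptor and itself a target, had levels of 323.2 ± 101.3 and 67.5 ± 55.2 in clusters 5 and 7 (SD, n = 5, log2 difference 2.84, SE 0.36, adjusted p = 0.0021). Foxl1, a forkhead factor of fibroblasts under gut epithelium, had levels of 62.7 ± 27.8 and 7.30 ± 4.18 (log2 difference 3.33, SE 0.73, adjusted p = 0.039). The target Gli1 had 41.1 ± 31.8 and 32.2 ± 27.1 and did not pass (adjusted p = 0.90).

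Of 7 tested secreted antagonists, 3 were higher in cluster 5 and 1 was lower, beside 0.944% and 1.04% of all genes. Notum, an enzyme that inactivates WNT proteins, stood at 252.1, 196.3, 170.4, 206.4 and 135.2 in cluster 5 and at 2.23, 9.20, 0, 0.285 and 23.2 in cluster 7 (log2 difference 6.32, SE 1.15, adjusted p = 0.016, and 0.097 without bladder_074s PdgfrbGFP). Dkk2, a modulator of LRP co-receptors, stood at 326.7, 248.3, 618.6, 449.4 and 253.9 in cluster 5 and at 10.3, 3.29, 66.7, 1.28 and 35 in cluster 7 (log2 difference 5.68, SE 0.91, adjusted p = 0.0084). Frzb was also higher and Sfrp4 was lower, both soluble frizzled-like decoys. Among the ligands, Wnt4 was higher in cluster 5 (log2 difference 4.54) and Wnt2b was lower (-5.62), and Wnt2 did not pass, at 593.0, 297.4, 287.9, 230.7 and 302.7 in cluster 5 and 374.1, 370.4, 414.5, 517.7 and 436.8 in cluster 7 (log2 difference -0.23, SE 0.24, adjusted p = 0.80).

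Of 15 tested genes of deep and adventitial fibroblasts, 7 were lower in cluster 5, beside 1.04% of all genes, and none was higher, with a median log2 difference of -1.70. Mfap5, a microfibril protein, stood at 38.5, 59.5, 16.4, 9.06 and 21.2 reads per 500000 in cluster 5 and at 459.8, 554.7, 360.5, 508.3 and 477.5 in cluster 7 (log2 difference -4.25, SE 0.39, adjusted p = 0.00055). Pi16, a peptidase inhibitor of adventitial fibroblasts, had levels of 403.8 ± 194.1 and 2530 ± 492.1 (SD, n = 5, log2 difference -2.80). Pcolce2, Clec3b, Dpt, Fbln2 and Cd34 were the other 5 called. Ly6a, a stem-cell antigen often used to mark adventitial cells, had 586.6 ± 113.2 in cluster 5 and 632.4 ± 159.1 in cluster 7 and did not pass (adjusted p = 0.97).

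The second comparison set cluster 7 against the other fibroblast clusters in the 7 groups with at least 3 cells of both, which adds bladder_352s Cspg4dsRED and bladder_515s Acta2GFP. Cluster 7 is in both comparisons, so values from them are given side by side and their likeness was not tested. Of 13722 genes tested, 2.02% were called at an adjusted p under 0.05 and a log2 difference of at least 1, with 72 (0.525%) higher in cluster 7 and 1.49% of genes lower. The median log2 difference over all genes was -0.26. Of the 11 genes of the study's text, 10 were tested and 3 were higher in cluster 7 (Ptgs1, Bmp3 and Col12a1), none was lower, and the median log2 difference was 0.88.

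The level of Bmp3 was higher in cluster 7 than in the other fibroblasts in every group. Over the 7 groups it ran from 11.5 through a median of 36.6 to 61.7 reads per 500000 in cluster 7. In the other fibroblasts it ran from 0.674 through 3.94 to 6.11, without overlap (log2 difference 3.32, SE 0.55, edgeR adjusted p = 0.010). In bladder_352s Cspg4dsRED the cluster 7 level of 41.3 came with a read in 0 of 10 thinned cells. The 1 other cell was too shallow to thin. In bladder_515s Acta2GFP the level of 11.5 came with a read in 1 of 9 thinned cells (11.1%), against 9.26% of the other fibroblasts. Neither group had a thinned cluster 7 cell with 10 reads or more. In the remaining groups the shares with a read were 19.4 to 43.9% in cluster 7 and 5.15 to 15.8% in the others. Bmp5 ran from 0.303 through 20.5 to 92.99 in cluster 7 and from 0.0443 through 0.921 to 2.69 in the others. Its groups overlapped, and its log2 difference of 3.17 (SE 1.43, adjusted p = 0.41) did not pass, although DESeq2 and the fit without the group as a block each called it (adjusted p = 0.013 and 0.047). Bmp2 had a log2 difference of 1.35 (SE 1.18, adjusted p = 0.75), and Bmp7 had too few reads to be tested. Of 10 tested BMP and related ligands, Bmp3 was the 1 that was higher in cluster 7, and Inhbb, an activin subunit, and Gdf10 were lower, beside 0.525% and 1.49% of all genes, with a median log2 difference of -0.58.

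Ptgs1 ran from 0 through 26.6 to 98.9 reads per 500000 in cluster 7 and from 0.0784 through 2.45 to 6.503 in the other fibroblasts (log2 difference 3.39, SE 0.64, adjusted p = 0.019), with an overlap at the low end. Col12a1 ran from 65.3 through 105.6 to 172.4 in cluster 7 and from 4.60 through 32.3 to 44.2 in the others, without overlap (log2 difference 2.10, SE 0.39, adjusted p = 0.018). In bladder_515s Acta2GFP its cluster 7 level of 115.3 came with a read in 1 of 9 thinned cells (11.1%), against 24.1% of the other fibroblasts. At 10 reads or more these shares were 11.1% and 15.7%. The call of Bmp3 was lost with sums per line and with thinned cells (adjusted p = 0.16 and 0.094), that of Ptgs1 without the block and with sums per line (0.10 and 0.21), and that of Col12a1 with sums per line (0.078). Ptgs1 also lost its call with clusters 1, 3, 6 and 8 as the reference (0.16). With 1 group left out, Ptgs1 lost its call without bladder_074s PdgfrbGFP, bladder_352s Cspg4dsRED, bladder_443s C57BL6, bladder_515s PdgfrbGFP or bladder_881s PdgfrbGFP (adjusted p = 0.057 to 0.074), and Col12a1 without bladder_074s PdgfrbGFP, bladder_443s C57BL6 or bladder_689s PdgfraGFP (0.051 to 0.066). Tnc differed by a log2 of 0.02 (SE 0.72), Cxcl14 by -2.19 (SE 0.62, adjusted p = 0.11, and 0.043 without bladder_352s Cspg4dsRED), Acta2 by -0.41 (SE 0.36) and Cd34 by 0.24 (SE 0.08, adjusted p = 0.18), none of which passed by edgeR with all groups, while DESeq2 called Cxcl14 (log2 difference -2.26, adjusted p = 0.0024).

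Read side by side, the genes fell into several patterns. Some had levels in cluster 7 between those of cluster 5 and of the other fibroblasts. Thsd4, a thrombospondin-type protein that assembles fibrillin microfibrils, stood at 285.8, 309.7, 167.3, 423.3 and 228.99 in cluster 5, at 40.5, 76.2, 48.4, 30.2 and 61.1 in cluster 7, and ran from 0.259 to 7.62 in the other fibroblasts. It was higher in cluster 5 than in cluster 7 (log2 difference 2.99, SE 0.37, adjusted p = 0.0021) and higher in cluster 7 than in the others (4.99, SE 0.71, adjusted p = 0.0043). Tspan8, a tetraspanin, had the same order, with log2 differences of 2.63 and 4.78. Thsd4 was not limited to these clusters, since its mean level was 107.4 ± 41.6 in the mural cluster 10 (SD, n = 7).

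Other genes were higher in cluster 7 than in the other fibroblasts and were not called between clusters 5 and 7. Wnt2 ran from 162.96 through 414.5 to 684.8 in cluster 7 and from 88.6 through 107.6 to 124.1 in the other fibroblasts (log2 difference 1.74, SE 0.17, adjusted p = 0.00052), and it kept its call with sums per line (adjusted p = 0.028). It was the 1 of 6 tested WNT ligands and R-spondins that was called there, beside 0.525% of all genes higher. Gm973 had levels of 54.6 ± 36.4 in cluster 5 and 51.4 ± 24.5 in cluster 7 (SD, n = 5) and was higher in cluster 7 than in the others (log2 difference 3.84, adjusted p = 0.0069). Gja1, the connexin 43 gene, had levels of 54.9 ± 32.2 and 33.2 ± 10.9, and was higher in cluster 7 than in the pooled others by a log2 of 1.84 (adjusted p = 0.031). The Gja1 call was lost without the block and with sums per line (0.096 and 0.16), and without bladder_074s PdgfrbGFP, bladder_443s C57BL6, bladder_515s Acta2GFP, bladder_689s PdgfraGFP or bladder_881s PdgfrbGFP (0.062 to 0.12). It was also lost with no filter on low counts (0.064) and at positions without a cluster 5 neighbour (0.89). With clusters 1, 3, 6 and 8 or with cluster 1 alone as the reference, Gja1 was not called either (0.24 and 0.35). Cluster 8, one of the pooled clusters, had a Gja1 level of 28.9 ± 24.96, near that of cluster 7. Chodl, a C-type lectin-like membrane protein, stood at 68.9 ± 18.5 in cluster 5 and 181.4 ± 65.1 in cluster 7, with a log2 difference over the other fibroblasts of 4.75 (adjusted p = 0.023). Cluster 1 had a Chodl level of 58.3 ± 54.5, near that of cluster 5, and against it alone Chodl was not called (log2 difference 2.01, adjusted p = 0.66). The Chodl call was also lost with sums per line (0.16) and without bladder_074s PdgfrbGFP, bladder_515s PdgfrbGFP, bladder_689s PdgfraGFP or bladder_881s PdgfrbGFP (0.0504 to 0.084), and that of Gm973 with sums per line (0.13) and against cluster 1 alone (0.77). At positions without a cluster 5 neighbour neither gene was called (0.23 for Chodl and 0.58 for Gm973).

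A different set of genes was called in cluster 5 against cluster 7 but was not higher in cluster 7 than in the other fibroblasts. Hhip differed from the other fibroblasts by a log2 of -1.59 (SE 1.21, adjusted p = 0.70), and none of the 14 contractile or 10 hedgehog and Fox list genes was called in cluster 7 against them by edgeR, with medians of -0.68 and -0.75. Of 16 deep fibroblast genes, 1 was called there, Dpt, which was lower in cluster 7 (log2 difference -1.66), beside 1.49% of all genes. The Dpt call was lost with sums per line (adjusted p = 0.13), and against cluster 1 alone the difference turned to 0.32. Col6a3, a chain of the microfibrillar collagen VI, was higher in cluster 5 than in cluster 7 and lower in cluster 7 than in the pooled other fibroblasts, at 797.6, 947.8, 1096, 1600 and 901.7 in cluster 5 and 79.2, 53.6, 85.8, 21.6 and 65.3 in cluster 7, with 147.5 to 345.2 in the other fibroblasts. Its log2 differences were 4.11 (SE 0.36, adjusted p = 0.00047) and -1.41 (SE 0.21, adjusted p = 0.0062). Both Col6a3 calls were lost with sums per line (0.14 and 0.053), the first with a minimum of 2 cells (0.086) and the second at positions without a cluster 5 neighbour (0.75), and against cluster 1 alone the second turned to 0.67. Of 15 tested fibrillar and associated collagens, 3 were higher in cluster 5 than in cluster 7 (Col6a3, Col12a1 and Col16a1), beside 0.944% of all genes, with a median log2 difference of 1.37, and in cluster 7 against the other fibroblasts Col12a1 was higher and Col6a3 lower, with a median of -0.43.

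A further set had low levels in both cluster 5 and cluster 7. Cilp, a cartilage intermediate layer protein, stood at 4.52, 1.71, 1.54, 1.69 and 6.69 in cluster 5 and ran from 0 through 2.18 to 8.22 in cluster 7, against 96.2 through 144.8 to 229.8 in the other fibroblasts (log2 difference of cluster 7 -6.10, SE 0.52, adjusted p = 0.00027). The low level was shared with cluster 1, at 3.93 ± 4.96 (log2 difference of cluster 7 from it -0.196), while clusters 6, 8 and 9 had 172.2 ± 44.7, 619.0 ± 460.7 and 562.7 ± 582.3. Heyl, a Notch target, ran from 0 through 0.980 to 10.1 in cluster 7 and from 32 through 58.4 to 82 in the others (log2 difference -6.06, SE 0.73, adjusted p = 0.0015). Neither passed in cluster 5 against cluster 7, with log2 differences of -0.09 (SE 0.96) and -0.15 (SE 1.02). Dapk2, Fibin and Cpne7 were the other 3 with the largest falls in cluster 7, at log2 differences of -6.51 to -6.25, and they had too few reads in both clusters to be tested between them.

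**Figure D2:**
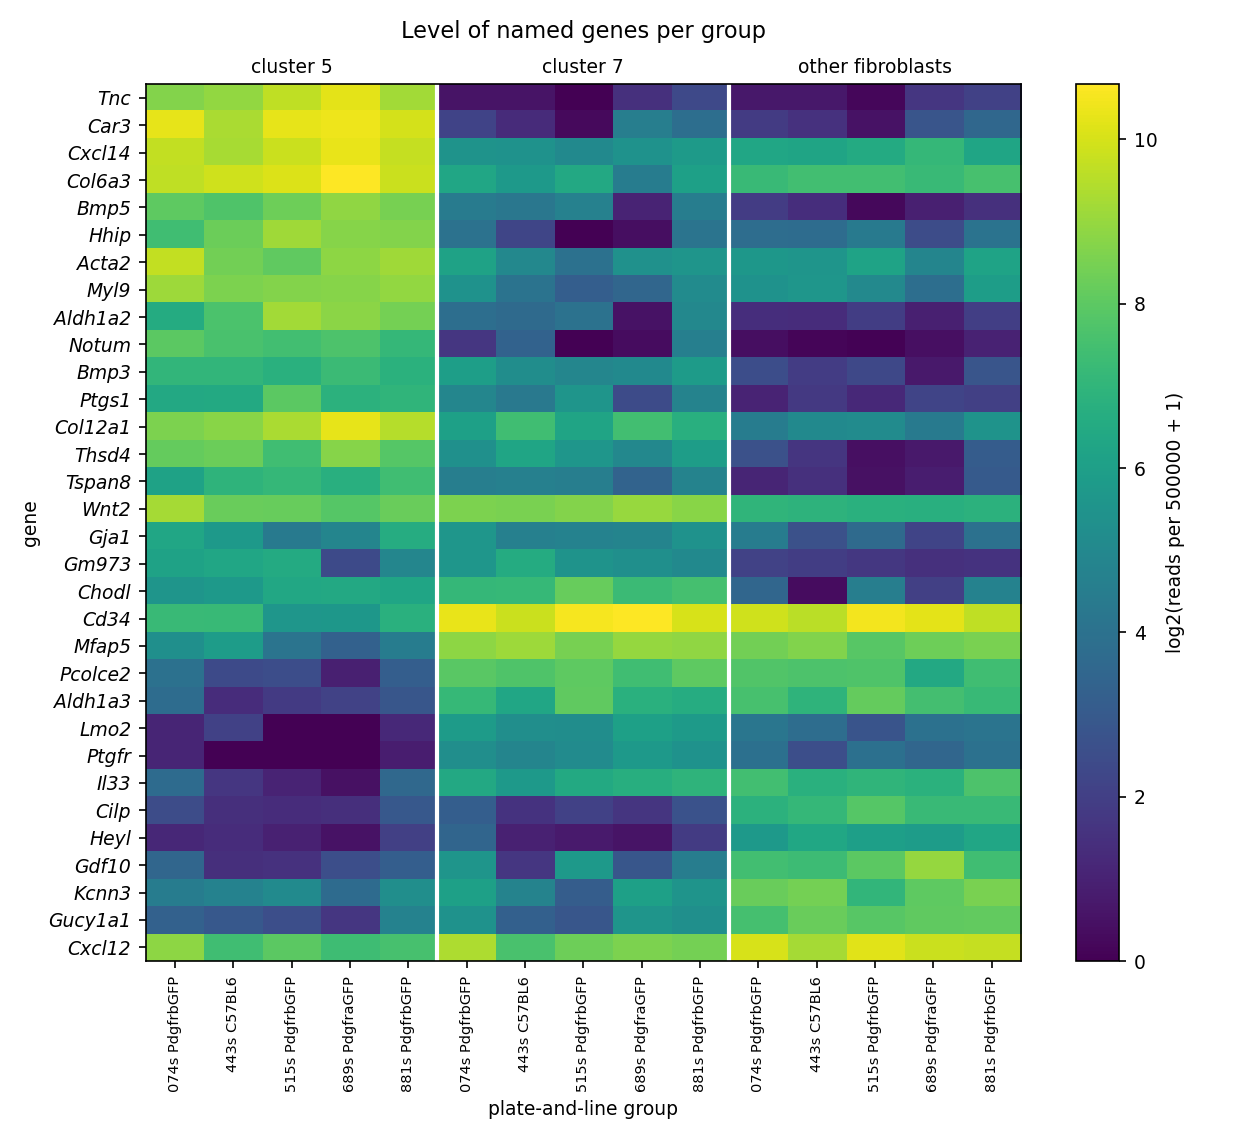
Level of 32 named genes as log2(reads per 500000 + 1), with genes in rows and the 5 plate-and-line groups of cluster 5, cluster 7 and the other fibroblasts in columns, brighter for higher levels. The rows from Tnc to Notum are bright in cluster 5, and those from Bmp3 to Chodl are brighter in clusters 5 and 7 than in the other fibroblasts. Those from Cd34 to Il33 are darker in cluster 5 than in cluster 7, and those from Cilp to Cxcl12 are brightest in the other fibroblasts.

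Across the 11 clusters, Bmp3 and Bmp5 had different orders. Mean Bmp3 was 126.3 ± 17.7 in cluster 5 (SD, n = 5 groups), 38.5 ± 17.2 in cluster 7 (n = 7), 24.7 ± 16.3 in cluster 1 (n = 6) and at most 2.72 in every other cluster. Clusters 7 and 1 therefore lay within their spread of each other, and cluster 5 above both. Mean Bmp5 was 325.8 ± 100.6 in cluster 5, 25.7 ± 31.3 in cluster 7 and at most 4.01 elsewhere, and in cluster 7 the SD was larger than the mean. The Bmp5 mean of cluster 7 rested on bladder_515s Acta2GFP (92.99, 9 cells), and without it was 14.5 ± 10.9 (n = 6). Wnt2 had 342.3 ± 143.1 in cluster 5, 423.0 ± 158.4 in cluster 7 and 342.005 ± 82.1 in cluster 1, within their spread of each other.

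Set against cluster 1 alone, a reference added after seeing the data, cluster 7 gave 33 called genes, 7 higher and 26 lower. Bmp3 then had a log2 difference of 0.91 (adjusted p = 0.91), Wnt2 of 0.06, Col12a1 of 0.69, Thsd4 of 3.85 (adjusted p = 0.26) and Ptgs1 of 4.85 (adjusted p = 0.29), and none was called. The differences from cluster 1 were under a log2 of 1 for Bmp3, Wnt2 and Col12a1 and over 3 for Thsd4 and Ptgs1, and a missed threshold does not show that the clusters are equal.

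**Figure D3:**
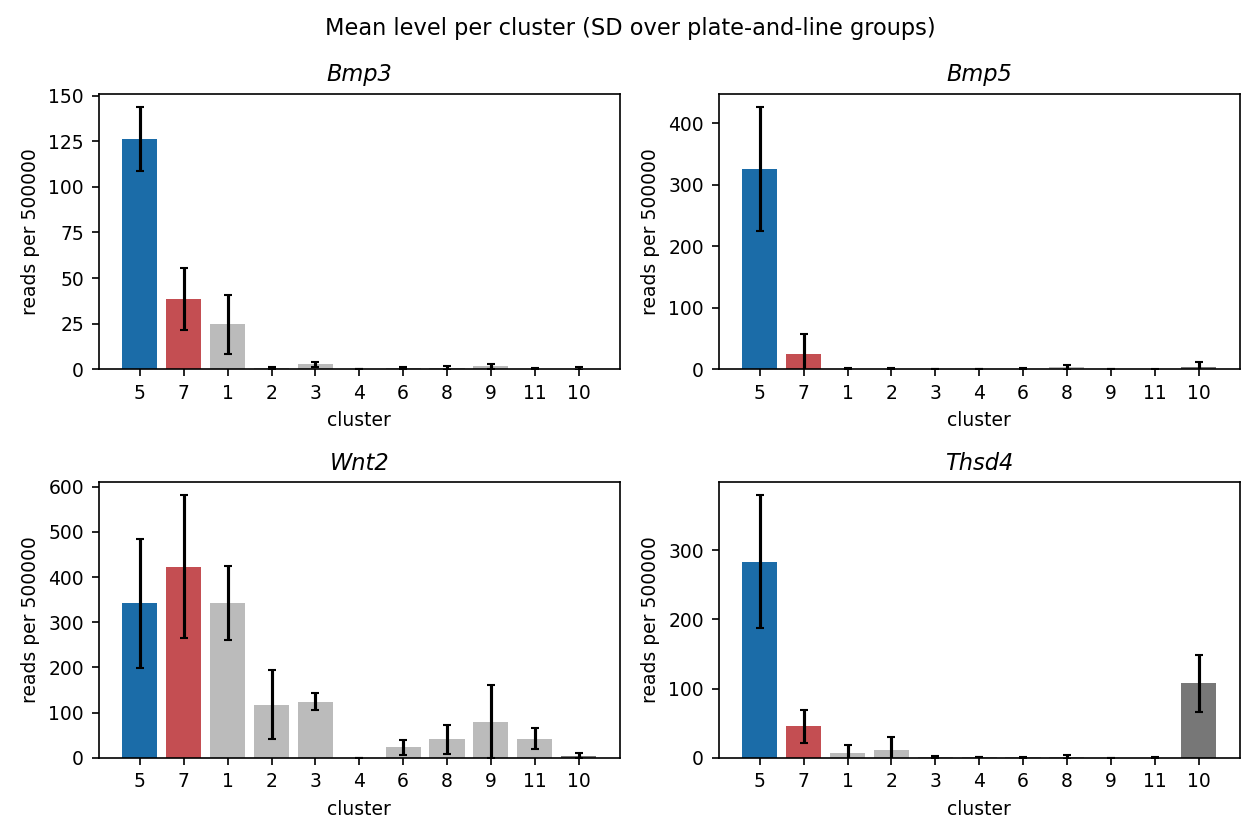
Mean level in reads per 500000 of Bmp3, Bmp5, Wnt2 and Thsd4 in each of the 11 clusters, with bars for the mean over plate-and-line groups and error bars for the SD between groups, on linear axes from 0. Cluster 5 is blue, cluster 7 red, the mural cluster 10 dark grey, and the other fibroblast clusters light grey. Clusters 5, 7 and 1 hold nearly all Bmp3, cluster 5 most of Bmp5, and cluster 10 has Thsd4.

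Per cell, few cluster 7 cells carried several of the cluster 5 genes. Cells were thinned to 50000 endogenous reads, which left out 1 cell of cluster 7 and 5 of the other fibroblasts. At 10 reads or more, Bmp3 was found in 44.7% of cluster 5 cells (34 of 76), in 17.5% of cluster 7 cells (40 cells, exact 95% interval 12.8 to 23.1%) and in 14 of 1044 other fibroblasts. Of those 14 cells, 10 were in cluster 1 (9.52% of its cells, interval 4.66 to 16.8%). Bmp5 was found in 69.7% of cluster 5 cells, in 9.65% of cluster 7 cells (22 cells, interval 6.15 to 14.2%) and in 6 of the other fibroblasts. Tnc was found in 81.6% of cluster 5 cells (62 of 76), and in 0 cells of cluster 7, where a limit of 3 counts gives a share of up to 1.32% (exact 95% upper bound 1.605%), and in 0 of 1044 others. Intervals and limits cover counting error only. In the mural cells of cluster 10, at a median of 128369 reads, 0 cells had Bmp3 and 1 had Bmp5 at this threshold. At 1 read or more the shares in cluster 7, the other fibroblasts and cluster 10 were 32.5%, 8.62% and 1.6% for Bmp3, 20.6%, 6.61% and 5.6% for Bmp5, and 13.6%, 8.52% and 3.2% for Tnc (30.6% and 23.2% in the first 2 classes before thinning).

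Of 9 of the study's genes (Tnc, Bmp2, Bmp3, Bmp5, Bmp7, Ptgs1, Cxcl14, Col12a1 and Acta2), a cluster 5 cell had a median of 6 at 10 reads or more, and 67 of 76 cells had at least 4. A cluster 7 cell had a median of 1 and a maximum of 4, which 4 cells reached, and other fibroblasts had a median of 0. Of the 22 cluster 7 cells with Bmp5, 6 also had Bmp3, 21 had Cd34 and 0 had Tnc. Of the 40 with Bmp3, 39 had Cd34. The reads were concentrated, with 9 cells holding 50% of the Bmp5 reads of cluster 7 and 16 holding 50% of the Bmp3 reads.

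Shares at low read numbers differed with the position on the plate. The libraries of a plate were dual indexed and sequenced in 1 lane, and cells were classed by the number of cluster 5 cells in their plate row or column. A single Tnc read or more was found in 0 of 68 cluster 7 cells with no such neighbour, in 7.87% of those with 1 to 2 and in 33.8% of those with 3 or more. The other fibroblasts gave 0.237%, 6.52% and 25.2%, so that in the pooled cells of both classes the share was highest beside the most cluster 5 cells, and after thinning 10 reads or more of Tnc were seen in neither. Plates differed in how many cluster 5 cells they held, and 17 of the 31 cluster 7 cells with a Tnc read were in bladder_881s, where 42.5% of the cells with a neighbour had one and 1 cell had no neighbour. In bladder_074s the share was 0 without and 14.3% with a neighbour, in bladder_443s 0 and 7.14%, and in bladder_515s and bladder_352s 0 in both. All cluster 7 cells of bladder_689s had a neighbour, with a share of 19.4%. For Bmp5 at 10 reads or more, the shares of cluster 7 were 8.82%, 8.99% and 11.3%, and for Bmp3 they were 13.2%, 15.7% and 23.9%. In the other fibroblasts they were at most 0.948% for Bmp5 and 1.57% for Bmp3. At 1 read or more, the shares of cluster 7 were 13.2%, 16.9% and 32.4% for Bmp5 and 23.5%, 33.7% and 39.4% for Bmp3, and those of the other fibroblasts were 2.84%, 5.98% and 13.8% for Bmp5 and 4.98%, 8.42% and 14.96% for Bmp3, in the same order as for Tnc. Bmp2 in cluster 7 went the other way, with 17.6%, 10.1% and 9.86% at 1 read or more. At 10 reads or more its shares were 10.3%, 4.49% and 4.23%. Ptgs1 at 10 reads or more was found in 4.41%, 8.99% and 11.3% of cluster 7. The part of plate position in the differences between the classes was not tested beyond leaving out the cells beside cluster 5.

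**Figure D4:**
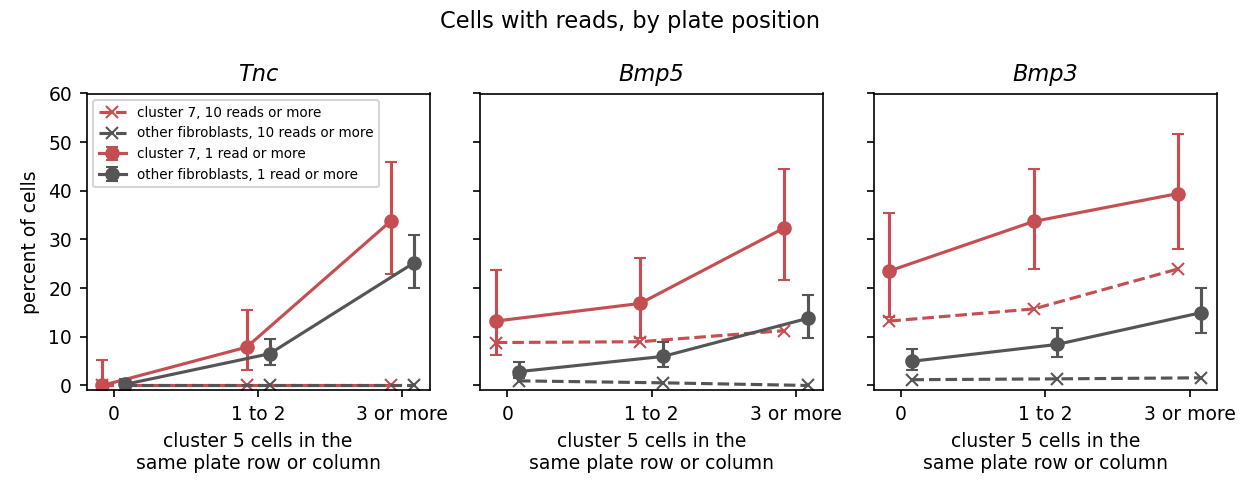
Percent of cells, thinned to 50000 reads, with at least 1 read (circles, exact 95% intervals) or at least 10 reads (crosses) of Tnc, Bmp5 and Bmp3, by the number of cluster 5 cells in the same plate row or column. Tnc at 1 read climbs from 0% to 33.8% in cluster 7 and from 0.237% to 25.2% in the other fibroblasts, and stays at 0% at 10 reads.

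Cluster 7 cells that shared no row or column with cluster 5, a set chosen after seeing the data, were read in the 5 groups with at least 3 of them (37, 7, 8, 9 and 6 cells in bladder_074s PdgfrbGFP, bladder_352s Cspg4dsRED, bladder_443s C57BL6, bladder_515s PdgfrbGFP and bladder_515s Acta2GFP). Their mean Tnc level was 0 and their Bmp3 level was 21.4 ± 14.9 against 2.70 ± 2.75 in other fibroblasts at such positions (SD, n = 5). Bmp5 was 28.1 ± 41.7 against 0.894 ± 1.41, Col12a1 was 117.7 ± 66.4 against 20.7 ± 12.1, Ptgs1 was 17.7 ± 27.6 against 3.96 ± 4.0004, and Thsd4 was 31.9 ± 31.3 against 1.21 ± 1.92. The Bmp5 mean rested on the 6 cells of bladder_515s Acta2GFP (101.8) and was 9.71 ± 7.63 without them (n = 4), that of Thsd4 was 20.8 ± 22.2 without bladder_443s C57BL6, and that of Ptgs1 was 5.66 ± 6.85 without bladder_352s Cspg4dsRED. In these cells 5 genes were called by edgeR, all lower in cluster 7, and none of Bmp3, Bmp5, Col12a1, Ptgs1 and Thsd4 was, with log2 differences of 3.10 for Bmp3 (adjusted p = 0.79), 5.72 for Bmp5 (0.80), 2.44 for Col12a1 (0.34), 1.13 for Ptgs1 (0.93) and 4.75 for Thsd4 (0.47).

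A broader set of genes was read in groups that had no part in choosing it. For each of the 5 groups, genes called higher in cluster 5 than in the other fibroblasts in the 4 remaining groups, without use of cluster 7, were taken as a list. This procedure was added after seeing the data, and the clusters themselves were drawn from all cells, so the values are a description. In the group left out, the median cell of cluster 5 had 48 to 65 list genes at 10 reads or more (33.3 to 46.04% of the list), that of cluster 7 had 11 to 18 (7.64 to 12.9%), and that of the other fibroblasts 6 to 11 (4.17 to 7.91%). Clusters 1 and 8 had medians of 9 to 15 and 7 to 13, and in bladder_443s C57BL6 the median of cluster 8 equalled that of cluster 7 (13). In each of the 5 groups the cluster 7 median was above that of the other fibroblasts. The list genes were chosen as lower in the other fibroblasts than in cluster 5, and cluster 7 was left out of that choice. A cluster 7 value above theirs is therefore partly built into the lists, here and in the values that follow.

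List genes took 3.88 to 6.72% of the reads of the median cell in cluster 5, 0.929 to 1.19% in cluster 7 and 0.524 to 0.642% in the other fibroblasts. Among cluster 7 cells, 30 (14.4%) had as many list genes as the lowest cluster 5 cell of the same group, against 15 of 814 other fibroblasts (1.84%). That count depends on the lowest cluster 5 cells, which had 14 list genes in bladder_443s C57BL6, where the cluster 7 median was 13, and 17 in bladder_689s PdgfraGFP. In bladder_074s PdgfrbGFP the lowest cluster 5 cell had 50 and the highest cluster 7 cell 32. No cell of either class reached the median of cluster 5. In bladder_515s PdgfrbGFP and bladder_881s PdgfrbGFP, the highest cluster 7 cells had 51 and 49 list genes, where the lowest cluster 5 cells had 49 and 33.

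**Figure D5:**
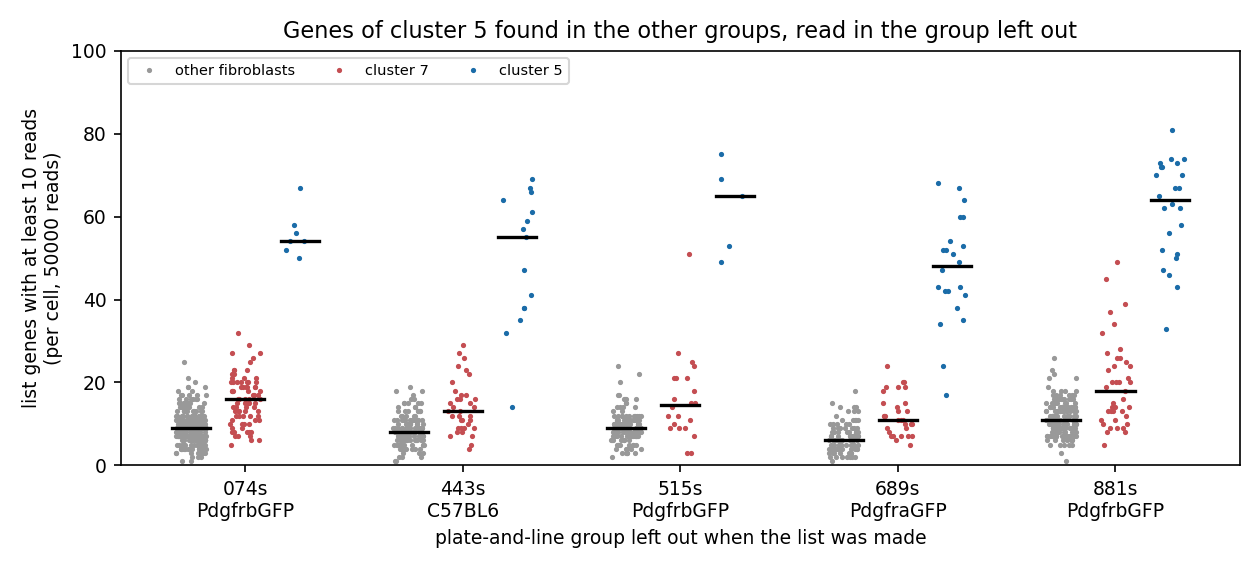
Number of list genes with at least 10 reads per cell, thinned to 50000 reads, in the plate-and-line group left out when the list was made, with 1 point per cell and a bar at the median. Cluster 7 medians of 11 to 18 lie above those of the other fibroblasts at 6 to 11 and below those of cluster 5 at 48 to 65.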

How the data were processed

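The authors demultiplexed single 50 bp reads with bcl2fastq, trimmed adapters, mapped to GRCm38 (mm10) with TopHat2 and Bowtie, removed what they call doublets from the alignments with samtools, and counted reads per gene with featureCounts; the annotation release and the strand setting are not given in the sources used here. The deposited table holds their raw counts for 46517 genes and 92 spike-ins in 1479 cells that passed their filters on depth and gene number, with depths of 50276 to 1446059 reads per cell. Its columns were matched to samples by plate and well. Without molecular identifiers, counts may include PCR copies, and genes whose reads overlap an antisense or neighbouring gene are uncertain.

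Counts were summed per plate-and-line group and cluster (at least 3 cells). Sums were tested with edgeR 4.0.16 in R 4.3.3 (TMM, filterByExpr, quasi-likelihood test with the group as a block, Benjamini-Hochberg adjustment over all genes tested); genes were called at an adjusted p under 0.05 and a log2 fold change of at least 2 (cluster 5 against cluster 7) or 1 (cluster 7 against the other fibroblasts). The group is the pairing: cells of both clusters shared a line and a plate, which the labels give. Tested on simulated data with the real library sizes, the fit recovered 26% of genes changed by a log2 of 2 and 64% of those changed by 4 in the first comparison, and 33% and 71% in the second. Recovery there meant an adjusted p under 0.05 and the right direction, without the fold required for a call. The changed genes were drawn from those with higher counts. DESeq2 1.42.0 was an alternative. Genes were named by rule: the 11 genes of the study's text, the 10 (first comparison) or 5 (second) called genes of largest fold in each direction with the same sign in every group and a level of at least 20, and the called members of each list, at most 5 by fold. A few list genes outside the rule (Bmp4, Twsg1, Gli1, Pi16 and Ly6a) were named after their values were seen. Members, lists and rules were chosen with earlier results of these data known. No doublet caller was run, and gene coordinates came from GENCODE M21 on GRCm38. One list result is not reported here.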

Additional observations from a re-analysis of the deposited data

Results flagged for a closer look

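Each of 40 genes (the study's 11 and those of largest fold) was screened for a group standing apart in cluster 5 (5 groups) or cluster 7 (7 groups), by Dixon's criterion on log2(level + 1). Of 80 sets of values 12 were marked, or 15%, where chance marks about 1 in 20. All values are levels in reads per 500000, and the cause was not tested for any.

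In cluster 5, Bmp2 was 20.5 in bladder_515s PdgfrbGFP (52.1 to 73.4 in the others), Trib3, a stress-response pseudokinase, was 6.81 in bladder_881s PdgfrbGFP (0 to 0.461), and Xpnpep2, an aminopeptidase, was 0 in bladder_515s PdgfrbGFP (0.442 to 0.615). The bladder_515s PdgfrbGFP group held 5 cells of cluster 5, the fewest of the 5 groups compared.

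In cluster 7, bladder_352s Cspg4dsRED stood apart for Thsd4, at 4.51 (30.2 to 76.2), and for Ptgfr, at 0 (27.95 to 54.8). The bladder_515s Acta2GFP group stood apart for Trib3, at 0 (22.1 to 64.2), for the adhesion molecule Lsamp, at 0.327 (30.6 to 127.6), and for Plcxd3, at 23.7 (49.1 to 71.4). These 2 groups held 11 and 9 cells of cluster 7. Mc5r was 1.03 and Lrrc55 0.414 in bladder_881s PdgfrbGFP (at most 0.0129 and 0.0660 elsewhere), Unc13c was 0.398 in bladder_515s PdgfrbGFP (at most 0.146), and Cpne7 was 5.23 in bladder_074s PdgfrbGFP (0 to 0.701).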

How the results depend on the processing

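Genes called in cluster 5 against cluster 7 (1.98% of those tested) made up 1.76% of 24756 with no filter on low counts (435 genes), 8.16% with DESeq2 (951), 0.244% with sums per line (28), 1.22% with a minimum of 2 cells, and 1.17 to 1.66% with 1 group left out (1.28% without bladder_074s PdgfrbGFP and 1.17% without bladder_881s PdgfrbGFP). In cluster 7 against the other fibroblasts (2.02%), they made up 7.45% with DESeq2 (1022), 0.471% with sums per line (65), 0.849% with clusters 1, 3, 6 and 8 as the reference, and 1.06 to 2.13% with 1 group left out (1.06% without bladder_443s C57BL6, 1.07% without bladder_515s PdgfrbGFP and without bladder_881s PdgfrbGFP, 1.14% without bladder_689s PdgfraGFP). Added after seeing the data, cells sharing no row or column with cluster 5 gave 0.0432% (5 genes) and cluster 1 as the reference 0.298% (33). Without the group as a replicate block, the shares were 2.43% and 1.69%. Median-of-ratios scaling gave 1.97% and 1.99%, thinned cells 2.37% and 2.05%, and no filter in the second comparison 1.10%. With the median gene at 0 (from -0.28 and -0.26), 58.8% of the called genes were higher in place of 47.6%, and 43.4% in place of 25.99%; with DESeq2 31.2% were in the first.

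Over all alternatives, 85.5% of the values of named genes in the first comparison kept direction and either stayed called or stayed uncalled. A further 11.5% lost the call, 5 values gained it and 26 turned direction. In the second comparison these were 76.9%, 20.99%, 4 and 13. Genes without a call are among the values, so the shares do not measure how often called genes kept their call. With sums per line, 42 of 75 values lost the call in the first and 22 of 45 in the second. The genes that turned in the first comparison were not called in it. Gm973 gave -0.0201 with no filter, -1.57 with sums per line, -0.23 thinned, -0.47 with 2 cells and -0.27 to 0.69 with 1 group left out. Cilp gave 0.19 with the median at 0, 0.34 with sums per line, 0.0589 with 2 cells and -0.28 to 0.30 with 1 group left out. Heyl gave 0.13 with the median at 0 and -0.43 to 0.43 with 1 group left out. Id3 gave -0.12 with no filter, -0.0335 thinned, -0.0468 with 2 cells and -0.12 to 0.28 with 1 group left out. Rarres2 gave -0.0265, -0.265 and -0.12 with no filter, sums per line and 2 cells. With the median at 0, Nbl1 gave 0.0021, Wnt2 0.0467 and Fosb 0.0082 (-0.48 to 0.0241 with 1 group left out). In the second, Tnc gave -0.0746 with no filter and -0.31 to 0.25 with 1 group left out, Nbl1 0.17 with the median at 0 and 0.0525 with clusters 1, 3, 6 and 8, and Col8a1 -0.27 at positions without a cluster 5 neighbour. With cluster 1 as the reference, Cxcl14 (1.09), Acta2 (0.30), Eng (0.12), Rarres2 (-0.0084) and the called genes Col6a3 (0.67), Dpt (0.32) and Fosl2 (0.16) turned. The cause was not tested. The 5 and 7 groups limit what can be called. Reads per exon base reached 1.14 for Col1a1, 0.797 for Myl9 and 0.791 for Cxcl14 in cluster 5, which would limit counts if duplicate reads were removed upstream.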

Other observations

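Of 10 tested retinoid genes, 3 were higher and 2 lower in cluster 5 than in cluster 7, beside 0.944% and 1.04% of all genes, with a median log2 difference of -0.15, and none was called by edgeR in cluster 7 against the other fibroblasts. Aldh1a2, the main retinoic acid synthase of embryonic mesenchyme, stood at 94.4, 201.3, 583.8, 452.9 and 347.0 reads per 500000 in cluster 5 and at 13.5, 12.1, 15.2, 0.441 and 30.9 in cluster 7 (log2 difference 4.56, SE 0.83, adjusted p = 0.015, lost without bladder_074s PdgfrbGFP at 0.061 without bladder_515s PdgfrbGFP at 0.053 and with sums per line at 0.28). Its relative Aldh1a3 stood at 12.7, 1.56, 2.53, 3.26 and 6.23 in cluster 5 and at 139.8, 79.7, 267.2, 108.3 and 96.8 in cluster 7 (log2 difference -5.17, SE 0.55, adjusted p = 0.0010). Rbp4, the retinol carrier, and Aldh1a1 were higher in cluster 5, by log2 differences of 5.34 and 2.28, and Cyp26b1, which degrades retinoic acid, was lower at -5.29 from levels under 4.45. The groups did not overlap for Aldh1a2 or Aldh1a3.

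Of 11 tested genes reported for sub-urothelial interstitial cells, 4 were lower and 1 was higher in cluster 7 than in the other fibroblasts, beside 1.49% and 0.525% of all genes, with a median log2 difference of -2.07, and none of 10 was called in cluster 5 against cluster 7 by edgeR. Kcnn3, a small-conductance potassium channel, ran from 7.83 through 44.9 to 87.1 in cluster 7 and from 128.7 through 260.4 to 371.3 in the other fibroblasts (log2 difference -2.98, SE 0.27, adjusted p = 0.00035), and stood at 21.1, 25.3, 33.3, 12.4 and 37.6 in cluster 5. Gucy1a1, a subunit of the nitric oxide receptor, ran from 2.10 through 30.1 to 45.9 and from 123.9 through 264.1 to 311.7 (log2 difference -3.83, SE 0.45, adjusted p = 0.0014). Cluster 1 was also low in both, at 80.04 ± 68.2 for Kcnn3 and 67.7 ± 60.4 for Gucy1a1 (SD, n = 6), and against it alone neither was called (log2 differences of -1.23 and -1.42, adjusted p = 0.88 and 0.50). Gucy1b1, its partner, and the purinergic receptor P2ry1 were lower as well, by log2 differences of -3.09 and -5.56.

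Chemokine and cytokine genes were lower in cluster 7 than in the other fibroblasts in 3 of 13 tested (Il6, Kitl and Cxcl12), beside 1.49% of all genes, with a median log2 difference of -2.15. Cxcl12, a stromal chemokine, ran from 195.9 through 375.9 to 656.1 and from 603.3 through 898.2 to 1161 (log2 difference -1.23, SE 0.14, adjusted p = 0.0014). Il33, an alarmin, was lower in cluster 5 than in cluster 7 (5.42 ± 5.80 against 90.7 ± 25.3, SD, n = 5, log2 difference -4.85, adjusted p = 0.010). Gdf10, a BMP-related ligand, had its highest levels in the other fibroblasts and was lower in cluster 7 by a log2 of -3.84 (SE 0.79, adjusted p = 0.027). Immediate-early genes, which dissociation is known to induce, were lower in cluster 7 in 3 of 18 tested (Fosb, Nr4a1 and Fosl2), beside 1.49% of all genes, with a list median of -0.79 against -0.26 over all genes. The Fosl2 call was lost without the block (0.17), with sums per line (0.20), with clusters 1, 3, 6 and 8 as the reference (0.33) and without bladder_074s PdgfrbGFP, bladder_443s C57BL6, bladder_515s PdgfrbGFP, bladder_689s PdgfraGFP or bladder_881s PdgfrbGFP (0.055 to 0.072), and that of Fosb without the block (0.13), with sums per line (0.12) and with that reference (0.055). Their part in the other results was not tested. In cluster 5 against cluster 7, 1 of 17 was called, Fosl2, which was higher in cluster 5 (log2 difference 2.25), beside 0.944% of all genes, a call lost with sums per line (0.51), with a minimum of 2 cells (0.20) and without bladder_074s PdgfrbGFP, bladder_443s C57BL6 or bladder_881s PdgfrbGFP (0.067 to 0.12) and under the fold required without bladder_515s PdgfrbGFP (1.95).

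Of 12 tested prostaglandin genes, Ptgs1 was higher and Ptgfr lower in cluster 5 than in cluster 7, beside 0.944% and 1.04% of all genes, and Ptgs1 was the 1 called in cluster 7 against the other fibroblasts, beside 0.525% of all genes higher. Of 15 tested basement membrane genes, 1 was higher in cluster 5, beside 0.944% of all genes, Col4a1, a main chain of collagen IV (409.5 ± 187.3 against 98.4 ± 47.6, SD, n = 5, log2 difference 2.22, SE 0.47, adjusted p = 0.032). The Col4a1 call was lost with sums per line (0.25) and without bladder_074s PdgfrbGFP, bladder_515s PdgfrbGFP or bladder_881s PdgfrbGFP (0.0914 to 0.103), and without bladder_689s PdgfraGFP the log2 difference was 1.72, under the fold required. In cluster 7 against the other fibroblasts, 2 of 17 were lower, beside 1.49% of all genes, Col4a4 and Col15a1, by log2 differences of -4.65 and -1.18. Against cluster 1 alone, Gucy1b1, Gdf10, Nr4a1, Col4a4 and Col15a1 were not called in cluster 7, and Cxcl12 was (log2 difference -1.66).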
